A study of Mus musculus with 4 samples.

Results

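Ccr7, S1pr1, S1pr4 and Ccr9 encode receptors that guide lymphocytes into, within and out of lymphoid organs. They were taken from the deposited gene table by symbol, and all 4 were found among its 17039 genes and passed the filter on low counts that left 12887 genes for testing. RNA sequencing had been done on T cells separated magnetically from the spleens of C57BL/6 mice kept under specific-pathogen-free conditions. AAV-IL-27 mice had received, by intramuscular injection a month earlier, a recombinant adeno-associated virus expressing interleukin-27, a cytokine of the interleukin-12 family. AAV-ctrl mice had received a control recombinant adeno-associated virus by the same route. Each group had 2 libraries, replicates 1 and 3, from separate animals. Both groups therefore carried a virus, and no group without one was analysed here. The promoter that drives interleukin-27 in the virus, the age of the mice and the kind of magnetic selection are not given in the sources used here. The series title names the cells as CD8+ T cells, whereas the cell type label says only splenic T cells.

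All 4 are receptors with a bundle of membrane-spanning helices that signal through heterotrimeric G proteins. CCR7 binds the chemokines CCL19 and CCL21 and brings naive and central memory T cells into lymph nodes and the T cell zone of the spleen. S1PR1 senses sphingosine 1-phosphate (S1P), a lipid that is abundant in blood and lymph and scarce inside tissue, and this gradient draws T cells out of thymus, lymph node and spleen. S1PR4 is a second S1P receptor found mainly on blood cells, and CCR9 binds CCL25, the chemokine of thymus and small intestine.

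The sequences shown first are stretches upstream of the transcription start, which can hold binding sites of transcription factors. Whether any factor acts on them in these cells was not tested. RefSeq promoter sequences on GRCm38.p6 were matched by symbol for 2 of the 4 genes, S1pr4 and Ccr9. The 250 bases before the start are given 5′ to 3′ on the gene's strand, at chr10:81500138-81500387 on the minus strand for S1pr4 and at chr9:123766961-123767210 on the plus strand for Ccr9. Capitals mark CACCC or its reverse complement GGGTG, the core letters bound by Krüppel-like factors such as KLF2.
S1pr4: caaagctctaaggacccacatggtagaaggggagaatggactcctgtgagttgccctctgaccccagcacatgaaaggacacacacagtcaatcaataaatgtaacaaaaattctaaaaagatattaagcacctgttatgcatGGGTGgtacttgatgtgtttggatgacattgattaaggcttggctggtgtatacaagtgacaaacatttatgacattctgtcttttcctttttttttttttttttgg
Ccr9: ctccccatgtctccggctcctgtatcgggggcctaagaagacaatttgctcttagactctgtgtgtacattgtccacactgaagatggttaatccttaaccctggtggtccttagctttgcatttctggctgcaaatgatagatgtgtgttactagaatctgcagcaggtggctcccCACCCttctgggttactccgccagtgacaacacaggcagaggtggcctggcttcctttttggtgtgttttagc
Each window held 1 match to CACCC, which began 107 bases before the start in S1pr4 and 73 bases before it in Ccr9. Of all 32851 promoter windows of this length, 52.0% held CACCC on either strand, so a match is common. The letters GTAAACA (bound by FOXO factors, in 3.17% of windows), TTCNNNGAA (STAT factors, 7.02%), TGTGGT (RUNX factors, 14.1%) and CTTTGAT (TCF and LEF factors, 3.21%) were searched on both strands and were in neither window. The S1pr4 window was 38.8% G and C and the Ccr9 window 50.4%, against a median of 52.4% over all windows.

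The 4 receptor genes share little sequence with one another. Ccr7 (NCBI Gene 12775) lies on chromosome 11 from 99144199 to 99155077, S1pr1 (NCBI Gene 13609) on chromosome 3 from 115710433 to 115715055, S1pr4 (NCBI Gene 13611) on chromosome 10 from 81497745 to 81500137, and Ccr9 (NCBI Gene 12769) on chromosome 9 from 123767211 to 123783457. In GENCODE transcripts of the same build, coding sequences of the 2 chemokine receptors were identical at 61.6% of aligned bases and those of the 2 S1P receptors at 59.6%. Pairs of a chemokine receptor with an S1P receptor stood at 59.3% to 60.5%, so these values do not set the families apart. The longest runs of letters shared within the coding sequence by the 2 chemokine receptors and by the 2 S1P receptors show how little overlaps.
Ccr7 and Ccr9: tcttcccttctgggcc
S1pr1 and S1pr4: tgggctggaactg
These runs are 16 and 13 bases long. No stretch of 50 bases in the Ccr7 or S1pr1 transcript occurred in a transcript of another gene. In S1pr4, 29 of 2337 such stretches (1.24%) did, all within the first 80 bases of the transcript and none in the coding sequence. In Ccr9, 11 of 5148 (0.214%) did, all outside the coding sequence, and exons of Ccr9 also overlap 22 bases of Slc6a20a and 56 bases of AC165425.1 on the opposite strand and 269 bases of Gm17200 on its own strand. The deposited counts of Ccr7 and S1pr1 are whole numbers, whereas those of S1pr4 and Ccr9 are not, as happens where software assigns part of the reads by estimate.

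All 4 receptor genes were lower in T cell preparations from AAV-IL-27 mice. Their RNA stood at 62.3% of the control level for S1pr1, 66.3% for Ccr9, 73.8% for Ccr7 and 86.3% for S1pr4, and in each gene both AAV-IL-27 libraries lay under both AAV-ctrl libraries. The groups were compared with edgeR's quasi-likelihood test on all 12887 genes, and a gene was called where its Benjamini-Hochberg adjusted p was under 0.05. Of all tested genes, 17.7% were called lower, 21.3% were called higher and 39.0% were called in either direction. Groups that did not overlap were found for 35.8% of tested genes with AAV-IL-27 the lower and for 35.7% with AAV-IL-27 the higher. All 4 receptors were called lower, with a median log2 fold change of -0.52, against -0.0053 over all tested genes. These libraries are bulk RNA, so fewer cells of a type that carries a receptor and less of its RNA per cell cannot be told apart.

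**Figure D1:**
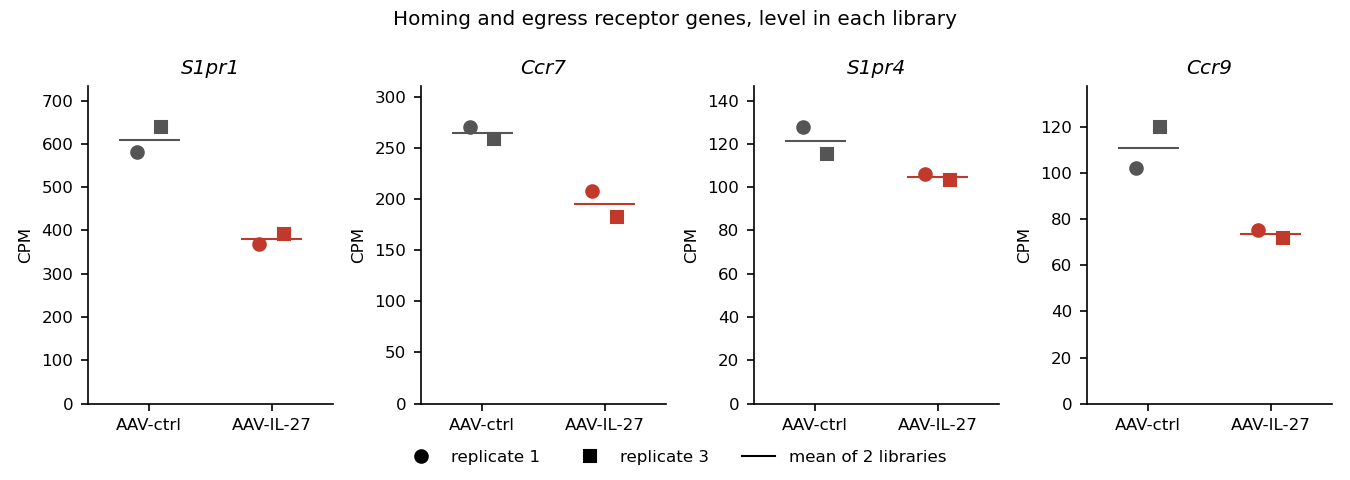
CPM (counts scaled to library size with TMM factors, linear axis from 0) of S1pr1, Ccr7, S1pr4 and Ccr9 in each of the 4 libraries, with circles for replicate 1, squares for replicate 3 and a line at the mean of each group. In every panel both AAV-IL-27 points lie under both AAV-ctrl points, with the widest relative gap for S1pr1 and the narrowest for S1pr4.

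S1pr1, the main exit receptor of T cells, had counts of 9343 and 10209 in replicates 1 and 3 of AAV-ctrl and of 5829 and 6217 in those of AAV-IL-27. As CPM, which are counts scaled to library size, these were 581.1 and 638.1 CPM in AAV-ctrl and 368.5 and 391.1 CPM in AAV-IL-27. The groups were far apart compared with the gap inside each of them. S1pr1 fell by 0.68 ± 0.058 (SE) on the log2 scale (edgeR adjusted p = 2.73e-05). Ordered from the strongest fall, S1pr1 was gene 702 of 12887.

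S1pr4, which shares the ligand but is linked to blood cells more widely, had the smallest change of the 4, although differences in fold change between genes were not tested. Its expected counts in replicates 1 and 3 were 2051.3 and 1843.03 in AAV-ctrl and 1676.33 and 1644.46 in AAV-IL-27, or 127.6 and 115.2 CPM against 106.0 and 103.4 CPM. The lower control library, replicate 3, stood close to the AAV-IL-27 libraries. S1pr4 fell by 0.21 ± 0.060 on the log2 scale (edgeR adjusted p = 0.0198), which put it at place 3227 of 12887 in the same order. The call was lost in 4 of 14 other settings. Without replicate 1 of AAV-ctrl the log2 fold change was -0.14 (adjusted p = 0.217), without replicate 3 of AAV-IL-27 it was -0.20 (adjusted p = 0.0569), and by DESeq2 -0.21 (adjusted p = 0.0808).

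Ccr7, the receptor for entry into lymph nodes and T cell zones, had counts of 4342 and 4135 in replicates 1 and 3 of AAV-ctrl and of 3280 and 2902 in those of AAV-IL-27. In CPM these were 270.0 and 258.4 against 207.4 and 182.5. The AAV-IL-27 libraries differed from each other by 0.18 on the log2 scale, more than the median difference of 0.10 over all tested genes, but did not reach the control libraries. Ccr7 fell by 0.44 ± 0.065 on the log2 scale (edgeR adjusted p = 0.000862), at place 1460.

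Ccr9, the receptor for the thymic and intestinal chemokine CCL25, had expected counts of 1644.8 and 1915.63 in replicates 1 and 3 of AAV-ctrl and of 1191.34 and 1143.71 in those of AAV-IL-27. In CPM these were 102.3 and 119.8 against 75.3 and 72.0. Here the spread was on the control side, where the libraries differed by 0.23 on the log2 scale, and the AAV-IL-27 libraries lay together. Ccr9 fell by 0.59 ± 0.078 on the log2 scale (edgeR adjusted p = 0.000607), at place 902. Counting error alone was at most 2.96% of a count for any of the 4 genes in any library.

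**Figure D2:**
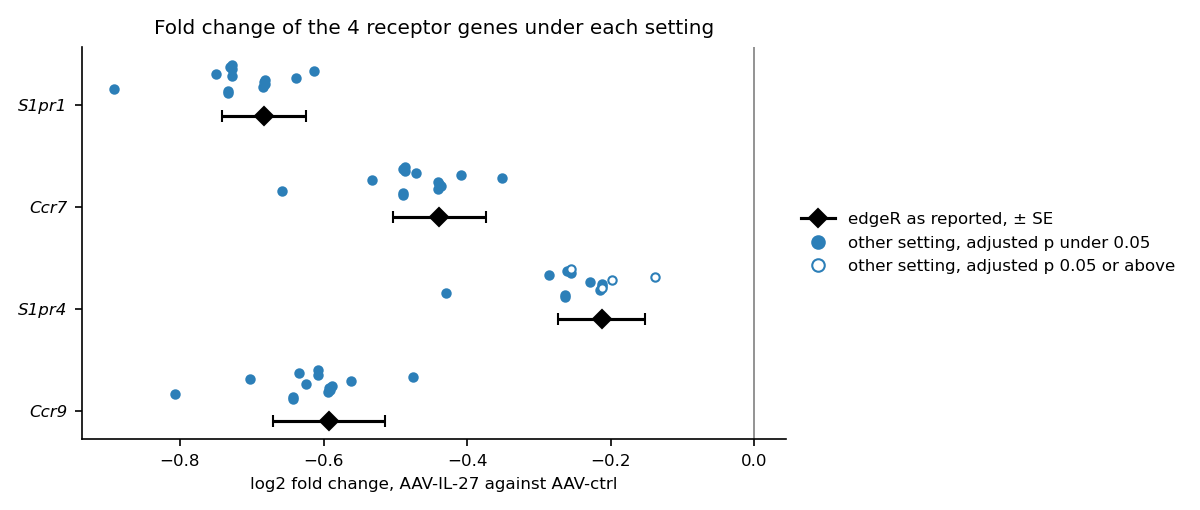
Log2 fold change of the 4 receptor genes (x axis, AAV-IL-27 against AAV-ctrl). Black diamonds with bars give the edgeR value ± SE, and circles give 14 other settings, filled where the adjusted p is under 0.05. All circles lie under 0, and the 4 open circles all belong to S1pr4, whose values run from -0.43 to -0.14.

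Levels can be compared between genes only per length of transcript, for which the deposited values taken as FPKM (fragments scaled to transcript length and library size) were used. In every library the order was S1pr1, Ccr7, S1pr4, Ccr9. In AAV-ctrl the means were 203.6 ± 13.3 FPKM (SD, n = 2) for S1pr1, 136.3 ± 4.27 for Ccr7, 51.5 ± 3.75 for S1pr4 and 25.7 ± 2.86 for Ccr9. In AAV-IL-27 they were 122.5 ± 5.18, 97.2 ± 8.68, 42.9 ± 0.721 and 16.5 ± 0.495 FPKM. No neighbours in this order overlapped between libraries of a group, and S1pr1 and Ccr7 came closest in AAV-IL-27 replicate 1, at 118.82 and 103.36 FPKM. In replicates 1 and 3, S1pr1 was at or above 98.4% and 98.5% of the table's genes in AAV-ctrl and 97.0% and 97.2% in AAV-IL-27. Ccr9 was at or above 79.1% and 82.2% in AAV-ctrl and 71.9% and 70.75% in AAV-IL-27. Such percentiles do not measure fold change.

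Among the 5 S1P receptor genes, S1pr1 made up most of the RNA in both groups and a smaller part in AAV-IL-27. The summed level was 260.8 and 272.5 FPKM in AAV-ctrl replicates 1 and 3 and 174.1 and 179.2 FPKM in AAV-IL-27. S1pr1 supplied 74.4% and 78.2% of that sum in AAV-ctrl and 68.2% and 70.4% in AAV-IL-27. S1pr4 supplied 20.8% and 17.9% in AAV-ctrl and 24.9% and 23.6% in AAV-IL-27. The ratio of S1pr1 to S1pr4 was 3.59 and 4.36 in AAV-ctrl and 2.74 and 2.98 in AAV-IL-27, so the groups did not overlap in it. With 2 libraries per group an exact permutation test of such a ratio cannot go below p = 0.333, and none was run.

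The other 3 receptors were low. S1pr2, which signals through G12 and G13 proteins and restrains migration, stood at 4.46 and 3.35 FPKM in AAV-IL-27 and 3.16 and 2.23 in AAV-ctrl (log2 fold change 0.59 ± 0.20, edgeR adjusted p = 0.0509). It was called higher in 4 of the 14 other settings. With all libraries these were the fit with no filter on low counts (0.59, adjusted p = 0.0342) and that with a replicate block (0.59, adjusted p = 0.0116), and the others left out 1 library, either replicate 3 of AAV-IL-27 (0.78, adjusted p = 0.0162) or replicate 1 of AAV-ctrl (0.85, adjusted p = 0.0487). S1pr3 stood at 5.35 and 5.37 FPKM against 5.79 and 5.77 (log2 fold change -0.06 ± 0.077, adjusted p = 0.586). S1pr5, an exit receptor of natural killer cells and some effector T cells, went from 3.62 and 2.67 FPKM to 2.11 and 1.93 and fell by 0.59 ± 0.20 (adjusted p = 0.0398). It missed the threshold by DESeq2 (adjusted p = 0.189), by limma over all genes above 0 (0.115) and when replicate 1 of AAV-ctrl (0.344) or replicate 1 or 3 of AAV-IL-27 (0.0639 and 0.11) was left out. Markers of natural killer cells moved both ways beside it. Of 10, 5 fell, among them the receptor genes Klra8 (16.44 and 16.68 FPKM in AAV-ctrl, 1.22 and 1.53 in AAV-IL-27), Klrb1c, Ncr1, Klra4 and Klri2, by 1.90 to 3.59 on the log2 scale. Klrk1, Eomes, Gzma and Nkg7, which effector CD8 T cells also carry, rose, and the summed level of the list was 851.9 and 785.1 FPKM in AAV-IL-27 against 454.5 and 442.8 in AAV-ctrl. The part of natural killer cells in the value of S1pr5 was not tested.

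**Figure D3:**
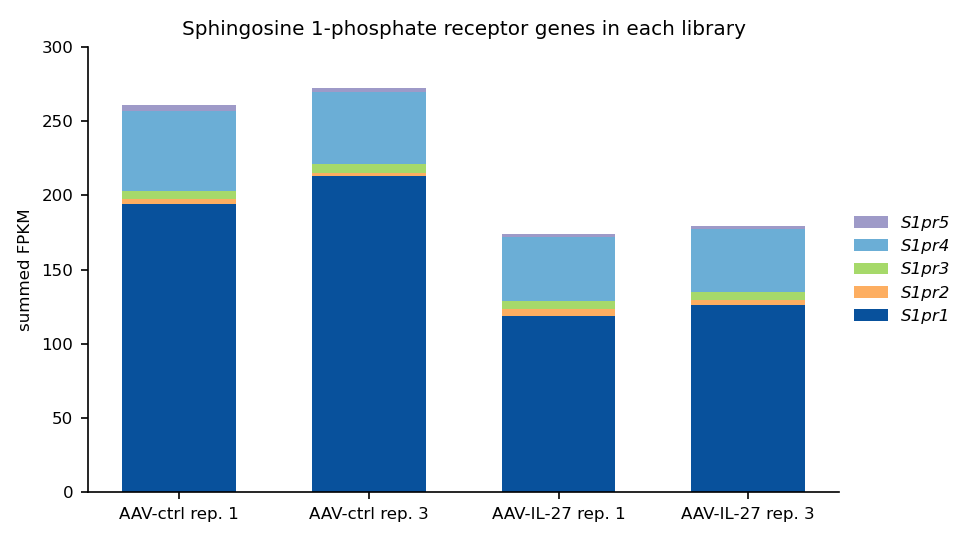
Stacked FPKM (y axis, linear from 0) of the 5 S1P receptor genes in each library. S1pr1, at the bottom of each bar, makes up 68.2% to 78.2% of the total, and the bars of the AAV-IL-27 libraries end at 174.1 and 179.2 FPKM against 260.8 and 272.5 in AAV-ctrl.

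Genes known to set the level or the surface display of S1PR1 and CCR7 moved in both directions. The list mixes genes that drive the receptors with genes that remove or desensitise them. Its counts and median therefore have no direction with respect to the receptors. Of 11 tested genes of this list, 6 fell, 3 rose and 2 did not pass (median log2 fold change -0.13, against -0.0053 over all tested genes). For comparison, 17.7% of all tested genes were called lower and 21.3% higher. Klf2, a transcription factor that drives S1pr1, went from 341.29 and 348.16 FPKM in AAV-ctrl replicates 1 and 3 to 192.68 and 188.19 in AAV-IL-27 and fell by 0.81 ± 0.046 on the log2 scale (edgeR adjusted p = 1.89e-06). Foxo1, a transcription factor upstream of Klf2 and Ccr7, went from 77.01 and 78.79 FPKM to 53.62 and 54.53 and fell by 0.48 ± 0.046 (adjusted p = 5.56e-05). The replicates of each gene lay almost on each other, and the groups did not overlap.

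Cd69, an activation marker whose protein binds S1PR1 and removes it from the cell surface, went the other way. It stood at 45.99 and 45.57 FPKM in AAV-ctrl and at 87.00 and 80.30 in AAV-IL-27, a rise of 0.89 ± 0.056 on the log2 scale (edgeR adjusted p = 3.37e-06). There was 0.237 and 0.214 FPKM of Cd69 for each FPKM of S1pr1 in AAV-ctrl replicates 1 and 3, and 0.732 and 0.637 in AAV-IL-27. This ratio only restates the rise of Cd69 and the fall of S1pr1. Protein at the cell surface was not measured. The ratio of Klf2 to S1pr1 was 1.76 and 1.64 in AAV-ctrl and 1.62 and 1.49 in AAV-IL-27, a difference smaller than that in either gene.

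Grk5, a kinase that phosphorylates activated receptors of this class, rose by 0.98 ± 0.089 on the log2 scale (edgeR adjusted p = 3.82e-05), and Stat3, a transcription factor that interleukin-27 and other cytokines activate, rose by 0.67 ± 0.048. Grk2, the kinase tied to desensitisation of S1PR1, stood at 0.0024 ± 0.047 (adjusted p = 0.975). Arrb1, one of the arrestins that uncouple and internalise receptors, fell by 0.49 ± 0.062 (adjusted p = 0.000304), and Arrb2, the other, fell by 0.41 ± 0.053 (adjusted p = 0.000358).

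**Figure D4:**
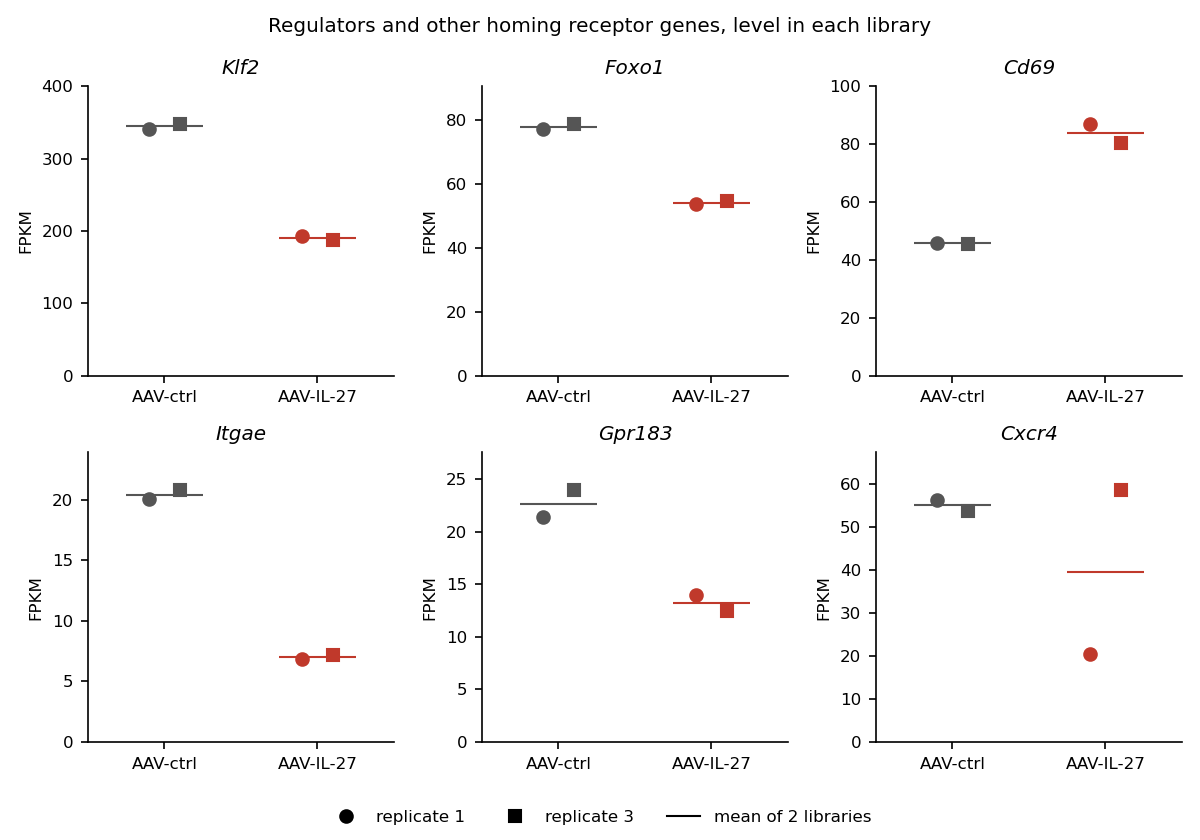
FPKM (linear axes from 0) of Klf2, Foxo1, Cd69, Itgae, Gpr183 and Cxcr4 in each library, drawn as for the receptor genes. Klf2, Foxo1, Itgae and Gpr183 are lower and Cd69 is higher in both AAV-IL-27 libraries, and Cxcr4 is low in AAV-IL-27 replicate 1 alone at 20.60 FPKM.

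Enzymes and transporters of S1P were mostly at low levels. By edgeR 17.7% of all tested genes were called lower and 21.3% higher. Of 11 tested genes of S1P metabolism, transport and the other S1P receptors, 4 fell and 0 rose by edgeR (median log2 fold change -0.09). At an unadjusted p under 0.05, 2 rose and 4 fell, and by DESeq2 0 rose and 1 fell. The absence of rising genes held only for some edgeR fits, since 2 rose and 4 fell with no filter on low counts and with a replicate block, and leaving out replicate 3 of AAV-IL-27 gave 2 rising and 3 falling genes. Leaving out replicate 1 of AAV-ctrl gave 1 of each. Spns2, an exporter of S1P best known from endothelium, went from 3.77 and 3.46 FPKM to 0.55 and 1.18, with 183 and 170 counts in AAV-ctrl and 27 and 62 in AAV-IL-27 (-1.97 ± 0.31 on the log2 scale, edgeR adjusted p = 0.00302). Sphk2, a kinase that makes S1P, fell by 0.22 ± 0.059 (adjusted p = 0.0171), and Plpp3, a phosphatase that breaks it down outside the cell, fell by 0.70 ± 0.23 (adjusted p = 0.0356). Neither Sphk2 nor Plpp3 passed without AAV-ctrl replicate 1 (adjusted p = 0.128 and 0.234), without AAV-ctrl replicate 3 (0.087 and 0.0988) or by DESeq2 (0.15 and 0.143), and for Plpp3 the same held with replicate 1 of AAV-IL-27 left out (0.141).

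Ligands of the chemokine receptors were nearly undetected in these cells. Ccl19 had 1.69 expected counts in 1 library and 0 in the others, and Ccl21a had 1 count in 1 library, both too low for the test. Ccl25 had 23 to 40 counts per library (log2 fold change -0.20 ± 0.33, edgeR adjusted p = 0.677), and Ackr4, a receptor that removes CCL19, CCL21 and CCL25, had 12.16 to 18.11 (0.06 ± 0.39, adjusted p = 0.92). The sign of both depended on the libraries, with 0.15 for Ccl25 without AAV-IL-27 replicate 3 and -0.20 for Ackr4 without AAV-ctrl replicate 3. The shares called by edgeR over all tested genes were 21.3% higher and 17.7% lower. Of the 4 tested ligands and scavenging receptors 2 rose and 0 fell, by an unadjusted p under 0.05 also 2 and 0, and by DESeq2 0 and 0. Those that rose were Ccrl2, an atypical receptor that presents chemerin (0.92 ± 0.26, adjusted p = 0.0199), and Ackr2, a scavenger of inflammatory chemokines (0.55 ± 0.15, adjusted p = 0.0209). Neither passed without AAV-IL-27 replicate 3, AAV-ctrl replicate 1 or AAV-ctrl replicate 3 (adjusted p from 0.077 to 0.156).

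Of 34 tested genes that carry the receptors' signal to the cytoskeleton, 9 rose, 6 fell and 19 did not pass (median log2 fold change 0.04). Over all tested genes 21.3% were called higher and 17.7% lower. The balance of the 34 depended on scaling, since 6 rose and 8 fell with upper-quartile factors and with library size alone. Rgs16 rose by 1.98 ± 0.11 on the log2 scale (edgeR adjusted p = 1.76e-06) and Rgs1 by 1.12 ± 0.072 (adjusted p = 4.49e-06). Both encode regulators that shorten Gi signalling and dampen chemokine responses. Rgs10, a regulator of the same family, fell by 0.72 ± 0.077 (adjusted p = 0.00013). Gng2, a G protein gamma subunit, rose by 0.56 ± 0.054, whereas Rasgrp2, an activator of Rap1 and so of integrins, fell by 0.57 ± 0.060 and Rhoh, a small GTPase of T cell receptor signalling, by 0.55 ± 0.052. Gnai2, the main Gi subunit of lymphocytes, stood at 344.50 and 351.72 FPKM in AAV-IL-27 and 329.91 and 323.71 in AAV-ctrl, a rise of 0.14 ± 0.044 (adjusted p = 0.0298). Without AAV-ctrl replicate 1 the count of called genes in this list was 8, against 15, and scaled to the T cell and CD8 list 3 rose and 9 fell.

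Of 14 tested receptors of homing and retention outside the 4, 7 rose, 4 fell and 3 did not pass (median log2 fold change 0.10). Among all tested genes 21.3% were called higher and 17.7% lower. The balance of the 14 turned with scaling to the T cell and CD8 list, to 4 rising, 5 falling and a median of -0.12. Gpr15, a homing receptor of the large intestine, went from 3.37 and 3.83 FPKM to 0.73 and 0.82 (-2.16 ± 0.27 on the log2 scale, edgeR adjusted p = 0.000277). Itgae, the integrin CD103 that binds epithelial cadherin, went from 20.06 and 20.81 FPKM to 6.83 and 7.20 (adjusted p = 5.14e-07). Gpr183, a receptor for oxysterols that guides lymphocytes within lymphoid tissue, fell by 0.72 ± 0.083 (adjusted p = 0.000172). Icam2, a ligand of LFA-1, fell by 0.54 ± 0.079 (adjusted p = 0.000697). Itgal, the alpha chain of LFA-1, rose by 0.75 ± 0.057, Itgb1 by 0.54 ± 0.046 and Gpr18, a receptor of intestinal T cells, by 0.53 ± 0.050. Itga4 and Itgb7, the chains of the integrin that brings T cells to the gut, rose by 0.28 ± 0.044 (adjusted p = 0.00112) and 0.17 ± 0.044 (adjusted p = 0.0126). In this fit genes of mucosal homing were thus found on both sides. The 4 that rose with scaling to the T cell and CD8 list included Itgal, Itgb1 and Gpr18 (0.54, 0.32 and 0.32). Itga4 and Itgb7 were therefore not both called higher there.

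Cxcr4, the receptor for CXCL12 that keeps cells in bone marrow, split the AAV-IL-27 libraries. Replicates 1 and 3 of AAV-IL-27 had 587 and 1692 counts, and those of AAV-ctrl had 1581 and 1517 (log2 fold change -0.43 ± 0.68, edgeR adjusted p = 0.697). Without AAV-IL-27 replicate 3 the value was -1.38 (adjusted p = 3.8e-06), and without AAV-IL-27 replicate 1 it was 0.14 (adjusted p = 0.0819). None of the 4 receptors showed such a split.

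**Figure D5:**
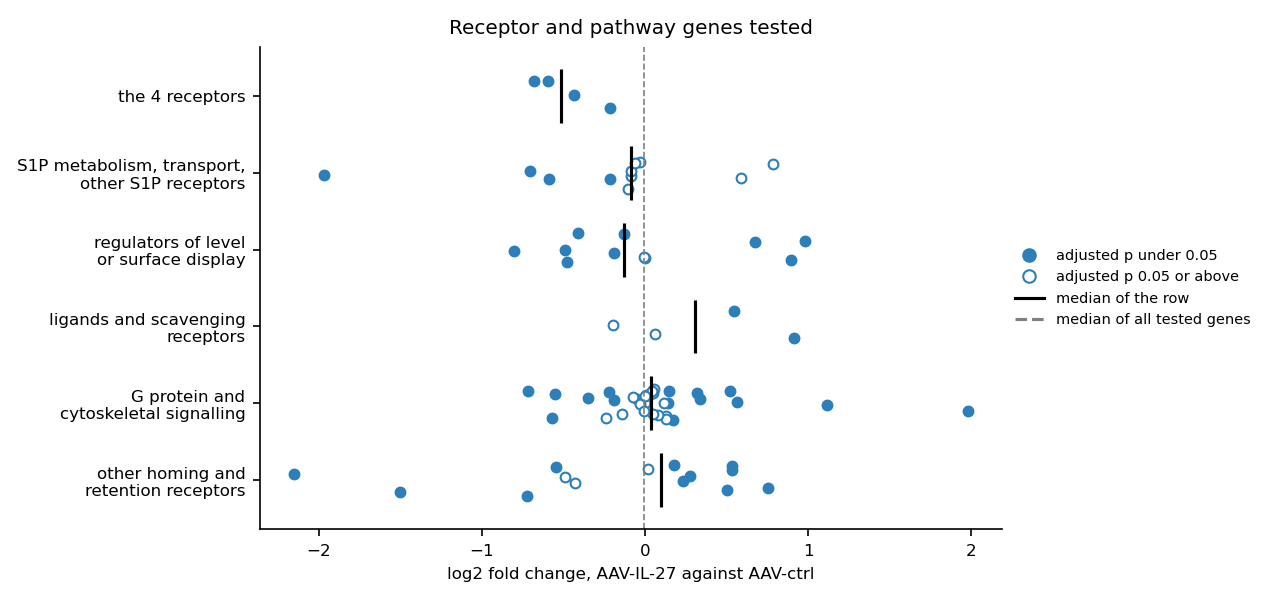
Log2 fold change (x axis, AAV-IL-27 against AAV-ctrl) of the 4 receptor genes and of the tested genes of each pathway list, spread vertically at random. Filled points have an adjusted p under 0.05, black lines mark the median of a row and the dashed line the median of all tested genes, -0.0053. All 4 receptors lie on the negative side, whereas every pathway list has genes on both sides.

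Total counts were 15742523 to 16182453 per library. Cd8b1 stood at 546.2 to 625.5 FPKM and Cd4 at 8.21 to 10.1 FPKM, as the CD8 label would have it, and genes of other cell types were also present and differed between the groups. Beside the marker counts that follow, 17.7% of all tested genes were called lower and 21.3% higher. Of 10 B cell markers, led by Cd79a, 4 fell and 6 did not pass by edgeR. All 10 had a negative log2 fold change (median -0.63, highest -0.22). Their summed level was 935.8 and 1298 FPKM in AAV-IL-27 against 2023 and 1778 in AAV-ctrl. In AAV-ctrl Cd79a stood at 629.81 and 530.49 FPKM, beside 605.58 and 616.63 for Cd8b1. B cells are known to carry Ccr7, S1pr1 and S1pr4, and their part in the values of these genes was not tested. Nor was it tested for Klf2, Foxo1, Gpr183, Icam2 or the other genes reported here. Of 12 neutrophil markers, led by S100a9, 11 rose and 1 did not pass, with sums of 1035 and 1695 FPKM in AAV-IL-27 against 38.0 and 27.3 in AAV-ctrl. Of 11 markers of plasmacytoid dendritic cells, which are known to carry Ccr9, 3 rose and 1 fell, and the sums were 477.3 and 429.7 FPKM in AAV-IL-27 and 410.4 and 410.9 in AAV-ctrl. Their defining marker Siglech stood at 49.87 and 37.53 FPKM against 44.18 and 50.99, which overlapped. The most abundant, Irf8, rose from 115.08 and 117.78 FPKM in AAV-ctrl to 194.95 and 161.1 in AAV-IL-27, so the sums depend heavily on it. The part of plasmacytoid dendritic cells in the value of Ccr9 was not tested. Of 6 tested endothelial markers 2 rose, 1 fell and 3 did not pass. Cdh5, at 1.61 to 2.86 FPKM, rose by 0.64 ± 0.16 (edgeR adjusted p = 0.0119), and Kdr, at 0.77 to 1.83 FPKM, rose by 1.16 ± 0.17 (adjusted p = 0.000766). Pecam1, which leukocytes also carry, was the most abundant at 40.87 to 63.01 FPKM and fell, and Vwf, Plvap and Esam were at 0.18 to 0.60 FPKM and did not pass. The part of endothelial cells in the value of Spns2 was not tested. Other lists gave 9 rising and 2 falling of 16 T cell and CD8 markers, 2 and 4 of 8 CD4 and regulatory T cell markers (led by Ctla4), 4 and 5 of 10 natural killer markers (Nkg7), 2 and 6 of 12 macrophage and monocyte markers (Ly6c2), 2 and 1 of 9 markers of conventional dendritic cells (Itgax) while 1 of 5 erythroid and platelet markers (led by Hba-a1) rose and 4 did not pass. Ctla4 and Ly6c2 rose, whereas most called markers of their lists fell. No listed marker was at 0 in all libraries. When libraries were scaled to the T cell and CD8 list, which put the median over all tested genes at -0.22 on the log2 scale, the values were -0.89 for S1pr1, -0.81 for Ccr9, -0.66 for Ccr7 and -0.43 for S1pr4.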

How the data were processed

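RNA of 4 libraries was compared, 2 from AAV-IL-27 and 2 from AAV-ctrl mice. The table deposited by the authors holds expected counts, and a second set of columns was taken as FPKM from its values, since the deposited headers do not name that unit. Per the submitters' processing notes the build was GRCm38.p6 and the tools were RSEM 1.2.12, HISAT2 2.0.4, DESeq2 1.4.5 and Bowtie2 2.2.5, with no role for each. No source used here gives strand. Columns of group means were not used.

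Expected counts were rounded, filtered with filterByExpr, scaled with TMM and tested with edgeR 4.0.16 (quasi-likelihood, robust, no block, two-sided, R 4.3.3), with Benjamini-Hochberg adjustment over 12887 genes and a threshold of 0.05. The SE is the log2 fold change divided by the square root of F. DESeq2 1.42.0 and limma 3.58.1 were alternatives. Scripts were tested on simulated data.

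The receptors, the pathway and marker lists and the tests were chosen with earlier results of these data known. Named were the receptors, 12 fixed genes (1 more is not reported here), the 3 called genes with the smallest p per direction and list, the most abundant marker per list and, by nearest pattern, 3 genes per receptor. Named after their values were seen were Grk2, Arrb2, Gnai2, Siglech, Cd4, Icam2, Itga4, Itgb7, the endothelial markers beside Pecam1 and the natural killer markers beside Nkg7. A chi-square of counts, divided by its degrees of freedom, was 6.79 within AAV-IL-27 and 2.55 within AAV-ctrl, above sampling noise. Coordinates come from RefSeq, matched by NCBI Gene number.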

Additional observations from a re-analysis of the deposited data

How the results depend on the processing

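Ccr7, S1pr1 and Ccr9 kept their direction and call under all 14 alternatives, with ranges of -0.66 to -0.35, -0.89 to -0.61 and -0.81 to -0.48 on the log2 scale. S1pr4 was negative in all 14 and called in 10, and its call was also lost with limma on log2(FPKM + 1) over all genes above 0 (-0.26, adjusted p = 0.0603), beside DESeq2 (-0.21). Leaving out 1 library gave -0.29 to -0.14 for S1pr4, 2635 to 4886 called genes overall against 5023, 2 to 5 in the S1P list against 4, 0 to 2 in the ligand list against 2 and 8 to 16 in the signalling list against 15; where 1 library was left in a group, it was assumed to vary like the others. Leaving out replicate 1 or 3 of AAV-ctrl gave 2635 and 2743 calls. DESeq2 called 3185 genes, 1 in the S1P list and 0 in the ligand list. Limma over all genes above 0 called 2 in the S1P list and 0 in the ligand list, limma over genes with a mean of at least 1 FPKM called 1 in the ligand list with either pseudocount, and scaling to the T cell list called 1 there. With that scaling the calls over all genes split into 1259 higher and 4076 lower, and with upper-quartile factors into 2362 and 2979, against 2745 and 2278.

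Signs turned for Ackr4 with scaling to the T cell list (-0.153) and with 1 library left out (-0.195 to 0.377), for Ccl25 (-0.649 to 0.15) and for Cxcr4 (-1.38 to 0.142) with 1 library left out. The cause was not tested. Replicate numbers are shared between the groups, but deviations of the same-numbered libraries were uncorrelated over genes (r = -0.01), and the labels tie no number to a shared litter or day. With a replicate block 4971 genes were called, and the values were -0.44 for Ccr7, -0.68 for S1pr1, -0.21 for S1pr4 and -0.59 for Ccr9, all still called. That block also called S1pr2 (0.59, adjusted p = 0.0116) and 6 genes of the S1P list against 4, as did the fit with no filter on low counts (S1pr2 at 0.59, adjusted p = 0.0342). Counts of 23 to 40 for Ccl25 and of 12.16 to 18.11 for Ackr4 limit what could be seen there.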

Other observations

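Genes whose 4 library values most resembled those of a receptor were sought by the distance between centred log2(CPM + 0.5) values. With 4 libraries this describes shape and amplitude on that scale only, and many genes lie close by. Fold changes by edgeR could differ more, such as a log2 value of -0.946 for Lrtm2 against -0.683 for S1pr1. Nearest to Ccr7 were Pcsk4, Mturn and Bbs4 (distances of 0.0193, 0.0216 and 0.0225), and nearest to S1pr1 were Guca1b, Lrtm2 and Trib2 (0.0528, 0.053 and 0.0556). Nearest to S1pr4 were Mmgt2, Rfxap and Tmem186 (0.00443, 0.0159 and 0.0182), and nearest to Ccr9 were Pheta1, Tmem14a and Kansl1l (0.0251, 0.0497 and 0.0657). Of these 12 genes, Trib2, a pseudokinase, had the smallest adjusted p by edgeR (log2 fold change -0.72 ± 0.057, adjusted p = 1.57e-05). Many of the neighbours were not called. These were Pcsk4, Lrtm2, Pheta1 and Tmem14a (edgeR adjusted p = 0.0651, 0.0662, 0.052 and 0.0518) and all those of S1pr4 (0.0785 to 0.134).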
